A study of Mus musculus with 6 samples.

Results

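Transcripts for the machinery of oxidative phosphorylation were followed in hearts of mice that had survived myocardial infarction. The genes were selected by a rule on names, set with earlier results of these data known. It took every array feature whose annotated symbol starts with Nduf, Uqcr, Cox4, Cox5, Cox6, Cox7, Cox8 or Atp5. Features named Sdha, Sdhb, Sdhc, Sdhd or Cycs were taken as well. This gave 94 genes among 22206 features, of which 19572 carry a single symbol, and no chosen symbol was repeated. By complex they comprised 44 genes of complex I, 4 of complex II, 8 of complex III, 20 of complex IV, 17 of complex V and the gene for cytochrome c. The Nduf names include 8 assembly factors, which build complex I without staying in it. Ndufa4 and Ndufa4l2, once assigned to complex I, were counted with complex IV. Genes of mitochondrial DNA, which supply further core subunits, were not analysed here.

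The hearts came from male mice 8 weeks old at surgery, in which the left coronary artery had been tied, and animals whose ejection fraction exceeded 45% at day 2 had been removed. Total RNA of the whole heart was hybridised to mouse Clariom S arrays, 1 array per heart. Control mice (Ctrl, Tcf21iCre/Tomato) were sampled 2 or 3 months after infarction, and mice that also carry MGTH2A (TTg, Tcf21iCre/Tomato/MGTH2A) at 3 months. Each of the 3 groups had 2 hearts, described by the submitters as independent biological replicates. Tcf21iCre acts in cells that use the Tcf21 promoter, largely cardiac fibroblasts, Tomato marks those cells, and MGTH2A adds Mef2c, Gata4, Tbx5 and Hand2, factors that act in heart development. All 3 groups share infarction, Tcf21iCre and Tomato, and the labels state neither when Cre was activated nor which promoter drives the factors. Whole hearts mix cardiomyocytes, the cells richest in mitochondria, with many other cells, so fewer cells of a type and less RNA per cell cannot be told apart.

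Oxidative phosphorylation makes most of the ATP that a beating heart consumes. Complexes I and II pass electrons from NADH and succinate to coenzyme Q, complex III passes them on to cytochrome c, and complex IV hands them to oxygen. The protons pumped on the way drive complex V, the ATP synthase. Most of the complexes join core subunits, which carry out the chemistry, with smaller accessory subunits, while complex II has only catalytic and anchor subunits. Several complex IV subunits exist as muscle and general isoforms.

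Several arrays stood apart in ways that bear on these genes. The scale ended at 19.93 on the log2 axis, 7 of the 94 genes reached 19 on at least 1 array, and Atp5a1, the alpha subunit of the ATP synthase, read 19.93 on all 6, so no difference could be measured for it. Markers of skeletal muscle (8 of 8 listed genes measured) averaged 7.17 in Ctrl at 2 months replicate 1 and 3.89 to 4.13 on the other 5 arrays. Adipocyte markers (6 of 7) averaged 6.40 on that same array and 4.01 to 4.47 elsewhere, with Ucp1 close to background on all arrays. In Ctrl at 3 months replicate 2, atrial markers (5 of 5) averaged 7.56 against 11.98 to 14.95 elsewhere, with Myl7 at 3.45 against 9.73 to 12.39. Markers of cardiomyocytes (12 of 12) lay between 18.25 and 18.69 on every array, but several sat at the top of the scale. Fibroblast markers (9 of 10) averaged 12.87 and 11.06 in 2-month controls, 12.79 and 11.73 in 3-month controls, and 11.26 and 9.91 for TTg. Macrophage markers (9 of 10) averaged 10.31 and 9.33, 10.52 and 9.05, and 8.50 and 7.98 in the same order. The part of these differences in the results below was not tested.

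Averaged over the 94 genes, the log2 signal was 14.72 and 14.52 for the hearts of Ctrl at 2 months. The 3-month control hearts had 13.85 and 14.29, and the TTg hearts 14.27 and 14.36. The group means were 14.62 ± 0.15 (SD, n = 2), 14.07 ± 0.31 and 14.31 ± 0.06. Ctrl at 2 months was thus the highest group, and TTg overlapped Ctrl at 3 months, of which only replicate 1 was clearly lower. Ctrl at 3 months replicate 1 was the lowest of the 6 arrays for 74 of the 94 genes, and replicate 2 of that group read higher than replicate 1 for 86 genes, including 44 of 44 in complex I. Ctrl at 2 months replicate 1 was the highest array for 61 genes. The mean over all 22206 features ranged only from 6.06 to 6.10 across arrays.

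**Figure D1:**
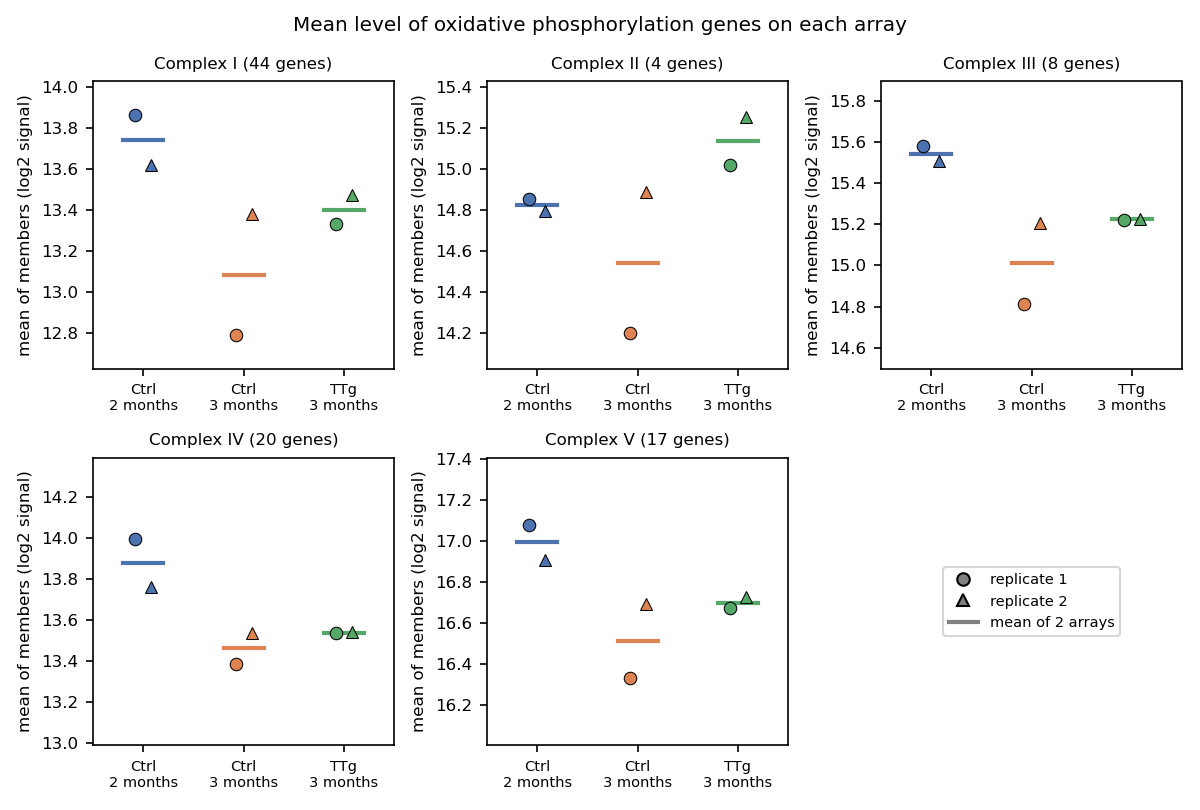
Mean log2 signal of the genes of each complex on each of the 6 arrays (points; circles are replicate 1, triangles replicate 2) with the mean of the 2 arrays of a group (bars); the vertical axes differ. Complexes I, III, IV and V are highest in Ctrl at 2 months, whereas complex II is highest in TTg, at 15.02 and 15.26.

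The first comparison asked how these transcripts differed between 2 and 3 months after infarction in control hearts. The mean was lower at 3 months for 88 of the 94 genes, higher for 5 and equal for 1, with a median difference of -0.50 on the log2 scale. Over all features the median was 0.01, with a lower mean for 48.8% and a higher one for 50.5%. Complex I had the lowest median (-0.64), followed by complex III (-0.52), complex IV (-0.38), complex V (-0.37) and complex II (-0.19), while cytochrome c differed by -0.73. In limma's moderated test with Benjamini-Hochberg adjustment over all features, 0 of the 94 passed an adjusted p of 0.05, where 0.0045% of all features passed, and the smallest adjusted p was 0.406. At an unadjusted p under 0.05, 34 of the 94 were lower and 0 higher, where the background was 4.09% lower and 3.91% higher. Both 3-month arrays lay below both 2-month arrays for 63 of the genes and above them for 1, against 17.4% and 18.3% of all features. Without Ctrl at 3 months replicate 1 the median was -0.32, with 76 genes lower and 16 higher, and without replicate 2, the array low in atrial markers, it was -0.73. Without Ctrl at 2 months replicate 1, the array with skeletal muscle and adipocyte markers, it was -0.42.

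The second comparison, between TTg and Ctrl at 3 months, addressed the effect of the 4-factor transgene. The mean was higher in TTg for 77 of the 94 genes and lower for 16, with a median of 0.22, against a median of 0.01 and 50.9% higher over all features. The medians were 0.60 for complex II, 0.29 for complex I, 0.21 for complex III, 0.16 for complex V and 0.11 for complex IV. None of the 94 passed the adjusted threshold in limma (0 of 94, smallest adjusted p = 0.646), where 0.0045% of all features did. At an unadjusted p under 0.05, 5 were higher and 0 lower (background 3.35% higher and 4.11% lower). Groups did not overlap for 29 genes in the higher and 2 in the lower direction, against 19.1% and 19.3% of all features. This pattern rested on 1 array: without Ctrl at 3 months replicate 1 the median was 0.01, with 48 genes higher and 42 lower. Without that array the medians by complex were 0.005 for I, 0.18 for II, 0.06 for III, 0.0225 for IV and -0.01 for V. Without replicate 2 of that group the median of the 94 was 0.44, and that of complex I 0.57.

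The third comparison set TTg at 3 months against Ctrl at 2 months. These groups differ in both the transgene and the time after infarction, which cannot be told apart here. The mean was lower in TTg for 74 of the 94 genes and higher for 19, with a median of -0.32, where the median of all features was 0.02 with 47.3% lower and 52.1% higher. Complex II stood at 0.27, and the others at -0.40 (I), -0.29 (III), -0.34 (IV) and -0.17 (V). Again limma called 0 of 94 at an adjusted p of 0.05 (smallest 0.340), and 0.0% of all features. At an unadjusted p under 0.05, 14 were lower and 1 higher, with a background of 5.41% and 4.30%. Groups did not overlap for 56 genes in the lower and 8 in the higher direction, against 18.9% and 21.2% of all features. Without Ctrl at 2 months replicate 1 the median was -0.21. The comparisons share arrays pairwise, so their differences are not independent, and the values below are given side by side.

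The fit had little power for differences of this size in simulated data. Differences of known size were simulated for TTg against Ctrl at 3 months. The shifted features were drawn at random from all features, each with its own observed spread. The percentages therefore do not measure the power for the 94 genes alone. A shift of 1 (log2) was called for 2.2% of the shifted features and a shift of 2 for 55%. No observed difference among the 94 exceeded 0.97 in size in that comparison, or 1.60 in any of the 3. An exact permutation of 2 against 2 arrays cannot give a p below 0.333.

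**Figure D2:**
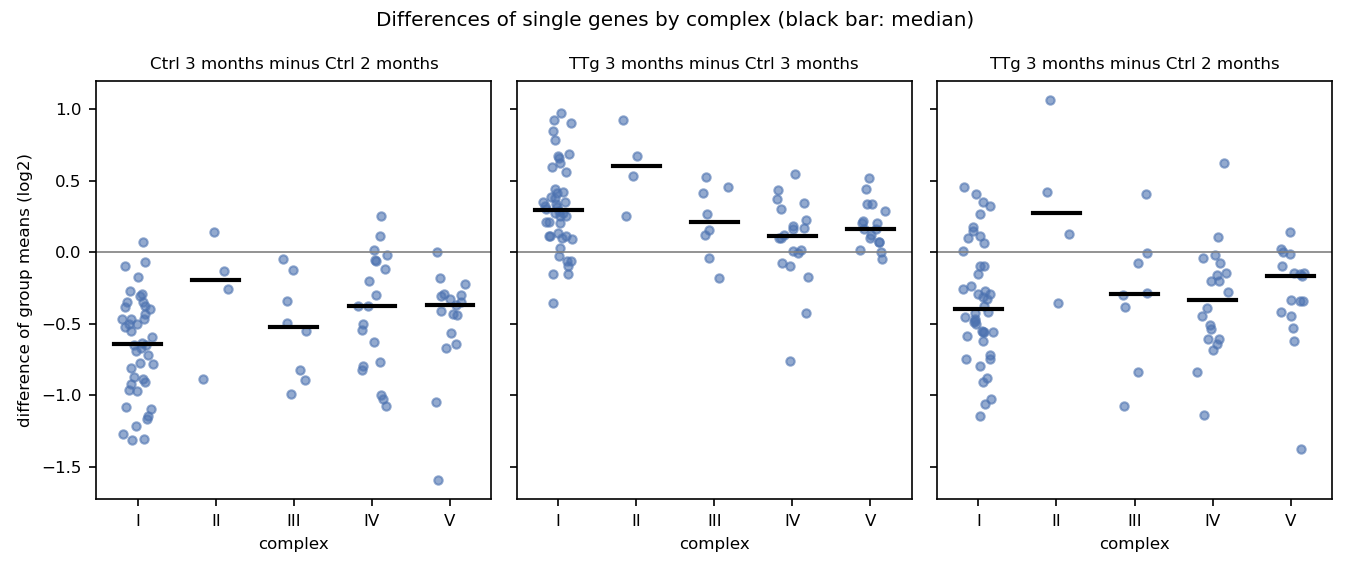
Difference of group means (log2) for each gene by complex in the 3 comparisons, with the median as a black bar and a grey line at 0. Most genes lie below 0 in Ctrl 3 months minus Ctrl 2 months (88 of 94), above 0 in TTg minus Ctrl at 3 months (77 of 94) and below 0 in TTg minus Ctrl at 2 months (74 of 94), and Sdha of complex II lies highest in the last, at 1.06.

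Complex I, the NADH dehydrogenase, has a distal part of its membrane arm whose nuclear genes are the Ndufb genes. All 11 of them had a lower mean in Ctrl at 3 months than at 2 months (median -0.81) and in TTg than in Ctrl at 2 months (median -0.59, range -1.07 to -0.46), also with any 1 array left out. Between TTg and Ctrl at 3 months their median was 0.25, and -0.065 without Ctrl at 3 months replicate 1. Ndufb2 read 14.24 and 14.08 in Ctrl at 2 months, 12.58 and 13.11 for 3-month Ctrl, and 13.30 and 12.89 for TTg. Both 2-month arrays were above the other 4, which overlapped. The differences were -1.31 ± 0.28 (SE, n = 2 per group) between control ages, a 2.49-fold lower signal, 0.25 ± 0.28 between TTg and Ctrl at 3 months, and -1.06 ± 0.28 between TTg and Ctrl at 2 months (limma adjusted p 0.406, 0.885 and 0.358). Ndufb7 read 12.89 and 12.25, 10.97 and 11.55, and 11.61 and 12.03 in the same order of groups. Here TTg lay above both 3-month control arrays and below both 2-month ones.

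Ndufs7, an iron-sulfur subunit next to the coenzyme Q site, had the largest difference between TTg and Ctrl at 3 months. Its signal was 15.98 and 16.02 in Ctrl at 2 months, 15.01 and 15.06 for 3-month Ctrl, and 15.93 and 16.08 for TTg. Both 3-month control arrays were low, within 0.05 of each other, and the other 4 arrays overlapped. TTg exceeded Ctrl at 3 months by 0.97 ± 0.22, or 1.96-fold (limma unadjusted p = 0.00306, adjusted p = 0.646), and by 0.95 without Ctrl at 3 months replicate 1. Ctrl at 3 months differed from Ctrl at 2 months by -0.96 ± 0.22 (adjusted p = 0.442), and TTg from Ctrl at 2 months by 0.01 ± 0.22. Ndufs1, the large iron-sulfur subunit of the NADH-oxidising module, read 15.28 and 15.94, 14.92 and 15.30, and 15.72 and 16.20, a difference of 0.85 ± 0.32 between TTg and Ctrl at 3 months (limma adjusted p = 0.661). Ndufv1, which binds NADH, read 17.14 and 17.28, 17.15 and 17.41, and 17.47 and 17.76, and was the only complex I gene whose mean was not lower in Ctrl at 3 months than at 2 months.

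Core and accessory subunits of complex I are given side by side. For the 6 nuclear core subunits (Ndufs1, Ndufs3, Ndufs7, Ndufs8, Ndufv1 and Ndufv2) the median difference between TTg and Ctrl at 2 months was 0.05, with 4 higher and 2 lower. For the 30 accessory subunits it was -0.46, with 4 higher and 26 lower. With 1 array left out these medians ran from -0.05 to 0.15 and from -0.60 to -0.29. The medians between control ages were -0.61 and -0.73, and between TTg and Ctrl at 3 months 0.38 and 0.26, for core and accessory subunits, the last pair being 0.19 and -0.0075 without Ctrl at 3 months replicate 1. No test of this difference was made, and the split was drawn after the values had been seen.

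The 8 assembly factors of complex I lay close together between control ages (-0.67 to -0.44) and wider apart between TTg and Ctrl at 3 months (-0.36 to 0.93), where their median was 0.28, but -0.18 without Ctrl at 3 months replicate 1. Ndufaf4 read 12.85 and 12.82 in Ctrl at 2 months, 11.99 and 12.74 for 3-month Ctrl, and 13.44 and 13.14 for TTg, so that both TTg arrays were above all 4 control arrays. It was 0.93 ± 0.30 higher in TTg than in Ctrl at 3 months (limma adjusted p = 0.661), and 0.55 higher without Ctrl at 3 months replicate 1. Ndufaf5 differed by 0.90 ± 0.35 (adjusted p = 0.661), with TTg at 7.65 and 8.63 and Ctrl at 3 months at 7.15 and 7.33. Its Ctrl arrays at 2 months read 8.02 and 7.73, both above TTg replicate 1. In the other direction, Ndufaf7, a methyltransferase that modifies a core subunit, read 9.38 and 9.24, 8.50 and 9.01, and 8.30 and 8.50. Between TTg and Ctrl at 3 months its difference was only -0.355 ± 0.26 (limma adjusted p = 0.811), and these groups met at 8.50. Against Ctrl at 2 months it was -0.91 ± 0.26 for TTg (limma adjusted p = 0.391) and -0.555 ± 0.26 for Ctrl at 3 months.

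**Figure D3:**
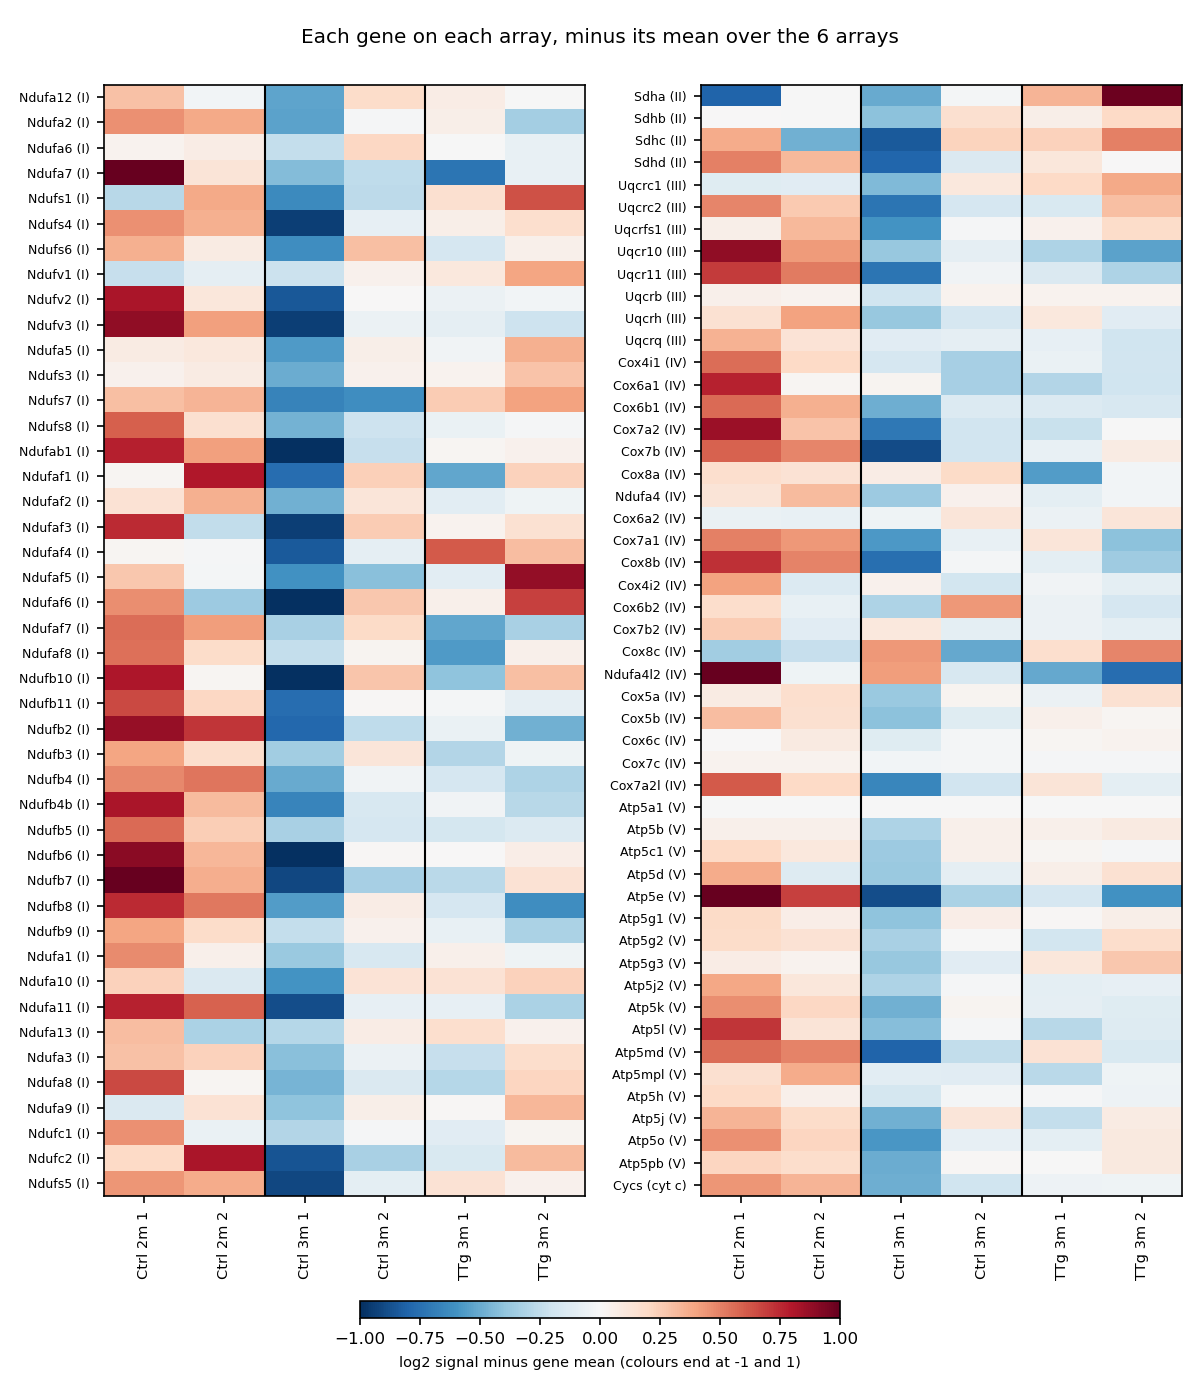
Log2 signal of each of the 94 genes (rows, complex in brackets) on each array (columns) minus the gene's mean over the 6 arrays; red is higher, blue lower, and colours end at -1 and 1. The column of Ctrl at 3 months replicate 1 is the lowest of the 6 for 74 genes, and Sdha is highest in both TTg arrays.

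Complex II, succinate dehydrogenase, is the only complex shared with the TCA cycle and the only one without a subunit from mitochondrial DNA. Sdha, its flavin-containing catalytic subunit, read 13.00 and 13.80 in Ctrl at 2 months, 13.30 and 13.78 for 3-month Ctrl, and 14.14 and 14.78 for TTg. Both TTg arrays were above all 4 control arrays, and the control groups overlapped. TTg exceeded Ctrl at 3 months by 0.92 ± 0.37 (limma adjusted p = 0.661) and Ctrl at 2 months by 1.06 ± 0.37, or 2.08-fold (adjusted p = 0.445). In that last comparison it was the single gene of the 94 with an unadjusted limma p under 0.05 in the higher direction, where 4.3% of all features had one. Sdhb, the iron-sulfur subunit, read 16.81 and 16.80, 16.39 and 16.96, and 16.86 and 17.00, with TTg and Ctrl at 3 months overlapping.

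The membrane anchors of complex II did not share one order. Sdhc read 13.67 and 12.82, 12.46 and 13.52, and 13.53 and 13.80, with a spread within each control group as large as the differences between groups. Sdhd read 15.94 and 15.76, 14.64 and 15.29, and 15.55 and 15.44, lower in Ctrl at 3 months than at 2 months by a log2 difference of -0.89 ± 0.28 (limma adjusted p = 0.544). The complex II median between control ages was -0.19, but 0.22 without Ctrl at 3 months replicate 1, and the median between TTg and Ctrl at 3 months was 0.60, but 0.18 without that array.

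Complex III, the cytochrome bc1 complex, had lower means at 3 than at 2 months in controls for all 8 genes, with medians of -0.50 for its core proteins and Rieske subunit and -0.55 for its small subunits. The core proteins and Rieske subunit (Uqcrc1, Uqcrc2 and Uqcrfs1) had a median of 0.46 between TTg and Ctrl at 3 months, and of 0.18 without Ctrl at 3 months replicate 1. Groups did not overlap for 3 of 3, in the direction in which 19.1% of all features did not. Their median between TTg and Ctrl at 2 months was -0.08. The 5 small subunits had medians of 0.12 (-0.05 without that array) and -0.39 in these comparisons. Uqcrc1 read 15.81 and 15.82 in Ctrl at 2 months, 15.49 and 16.04 for 3-month Ctrl, and 16.13 and 16.31 for TTg, the highest group. Uqcrc2 read 15.14 and 14.91, 13.92 and 14.48, and 14.50 and 14.95 in the same order of groups. Uqcrfs1 read 15.56 and 15.82, 14.90 and 15.49, and 15.54 and 15.68. Both Uqcrc2 and Uqcrfs1 had their highest mean in Ctrl at 2 months. Uqcr10, one of the small subunits, read 14.08 and 13.62, 12.81 and 13.10, and 12.88 and 12.66. Its mean was lowest in TTg, at -1.08 ± 0.27 against Ctrl at 2 months (limma adjusted p = 0.340). Cytochrome c (Cycs), the carrier between complexes III and IV, read 19.19 and 19.09, 18.26 and 18.55, and 18.70 and 18.71, close to the top of the scale, and its 3 groups did not overlap.

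Among complex IV genes, subunits with muscle and general isoforms were compared isoform by isoform, each gene against itself. Cox7a1, the muscle form, read 16.65 and 16.58, 15.57 and 16.07, and 16.27 and 15.74. Cox7a2, its general counterpart, read 15.37 and 14.80, 13.80 and 14.32, and 14.29 and 14.51. Both forms were thus highest in Ctrl at 2 months, and the differences of Ctrl at 3 months from that group were -0.80 ± 0.29 and -1.02 ± 0.30 (limma adjusted p 0.568 and 0.523). Cox8b, a muscle form, read 15.76 and 15.52, 14.27 and 15.01, and 14.93 and 14.67, whereas its general form Cox8a read 14.13 and 14.11, 14.04 and 14.16, and 13.41 and 13.94. Control groups overlapped for Cox8a, and both TTg arrays lay below them, by a log2 difference of -0.42 ± 0.26 from Ctrl at 3 months (adjusted p = 0.763). For the third pair, the muscle form Cox6a2 stayed between 19.13 and 19.33 near the top of the scale, and the general form Cox6a1 read 14.38 and 13.63, 13.64 and 13.28, and 13.32 and 13.41.

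Complex IV subunits with no isoform among the 94 (Cox5a, Cox5b, Cox6c and Cox7c) had a median of -0.06 between TTg and Ctrl at 2 months, but Cox6c and Cox7c lie near the top of the scale, which limits a difference. The 7 general isoforms (Cox4i1, Cox6a1, Cox6b1, Cox7a2, Cox7b, Cox8a and Ndufa4) had a median of -0.53 in that comparison, with 7 of 7 lower. Cox7b, a general isoform, read 17.89 and 17.79, 16.41 and 17.11, and 17.23 and 17.38, with TTg between the other groups and no overlap. Isoforms of other tissues or states (Cox4i2, Cox6b2, Cox7b2, Cox8c and Ndufa4l2) had means from 3.37 (Cox6b2) to 8.17 (Ndufa4l2). Cox6b2 was the single gene of the 94 below the dim level of 3.65. Ndufa4l2, a paralog of Ndufa4 known as a target of hypoxia-inducible factor, read 9.22 and 8.13, 8.59 and 8.01, and 7.66 and 7.41, and had the most negative difference between TTg and Ctrl at 3 months, -0.77 ± 0.40 (limma adjusted p = 0.715). Both TTg arrays lay below all 4 control arrays.

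In complex V the largest difference was that of Atp5e, the epsilon subunit of the rotating central stalk. Its signal was 11.18 and 10.56 in Ctrl at 2 months, 8.99 and 9.56 for 3-month Ctrl, and 9.71 and 9.27 for TTg. Both 2-month arrays were above the other 4, which overlapped. Ctrl at 3 months differed by -1.59 ± 0.33, a 3.02-fold lower signal, and TTg by -1.38 ± 0.33, from Ctrl at 2 months (limma adjusted p 0.406 and 0.340). Without Ctrl at 2 months replicate 1 these were -1.28 and -1.07. Atp5md, a small subunit of the membrane part, read 18.58 and 18.52, 17.22 and 17.78, and 18.17 and 17.87, with TTg between the other groups and no overlap.

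The 3 genes for subunit c, whose identical mature proteins form the rotor ring, had small differences. Atp5g3 read 17.68 and 17.64, 17.23 and 17.49, and 17.72 and 17.88, with TTg above all control arrays by a narrow margin. Atp5g1 and Atp5g2 had differences of 0.20 and 0.16 between TTg and Ctrl at 3 months (SE 0.25 for each). Outside the naming rule for subunits, the inhibitor of the ATP synthase, Atpif1, read 15.41 and 14.58, 14.55 and 13.71, and 14.80 and 13.92, with replicate 1 above replicate 2 in every group.

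**Figure D4:**
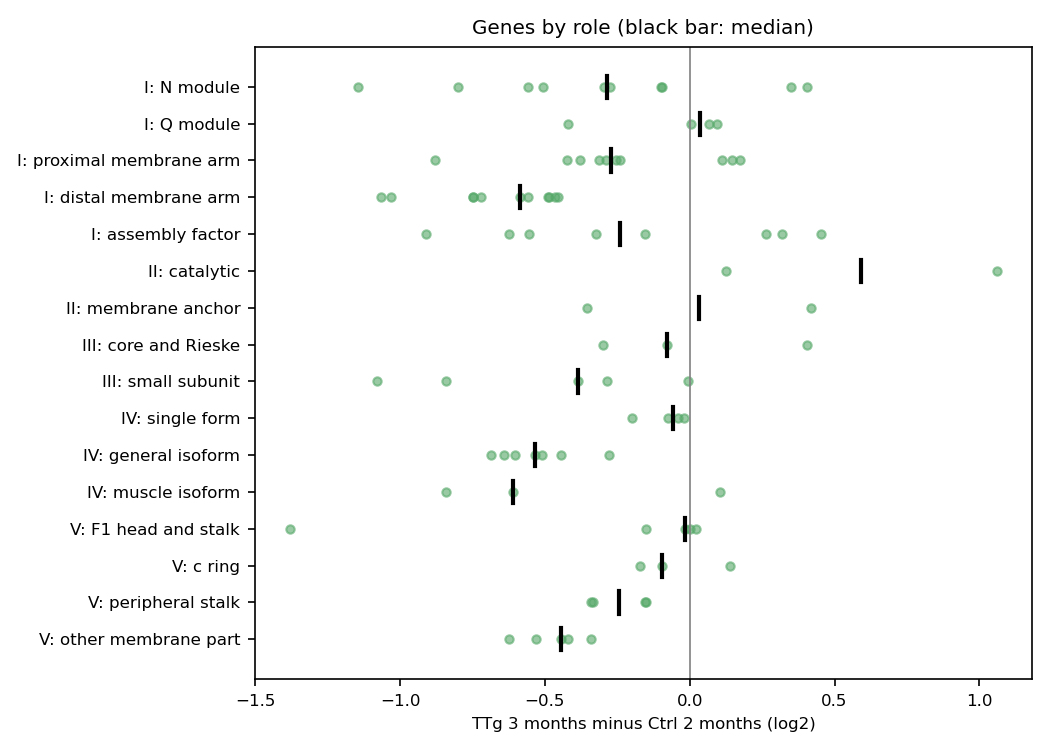
Difference between TTg at 3 months and Ctrl at 2 months (log2) for each gene, grouped by place in complexes I to V, with group medians as black bars. Cytochrome c, the acyl carrier Ndufab1, Cox7a2l and the complex IV isoforms of other tissues or states are left out. All 11 genes of the distal membrane arm of complex I lie below 0 (median -0.59), and both catalytic genes of complex II lie above 0.

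Promoter sequences of the genes were also examined, and a link between motifs and the differences was not tested. Windows of 250 bases before to 50 after the gene start (RefSeq, GRCm38.p6) were held for 78 of the 94 genes. On both strands they were searched for the letters GCGCA and GCGC with 1 base of any kind between them (NRF1), CCGGAAG (GABP), AAGATGG (YY1) and AAGGTCA (estrogen-related receptors), which are motifs of factors known for nuclear mitochondrial genes. NRF1 letters were found for 23.1% of the genes against 7.05% of the 15691 array genes with a window and 4.78% of all 27025 promoters. GABP letters were found for 23.1% against 12.2% and 9.12%, YY1 letters for 14.1% against 6.50% and 6.48%, and those of estrogen-related receptors for 10.3% against 3.91% and 4.66%. The 18 genes with an NRF1 match had median differences of -0.51 between control ages and 0.31 between TTg and Ctrl at 3 months, where the 60 without had -0.57 and 0.24. For GABP these were -0.66 and 0.19 with a match and -0.50 and 0.27 without. For YY1 they were -0.43 and 0.11 for the 11 with, and -0.59 and 0.27 for the 67 without. For estrogen-related receptors they were -0.83 and 0.23 for the 8 with, and -0.51 and 0.26 for the 70 without. All of these medians include Ctrl at 3 months replicate 1, the array on which the median of the 94 between TTg and Ctrl at 3 months rested. They were not taken without that array. No order among the motifs was tested. Matches describe letters in these windows and not binding.

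The 250 bases before the start are shown, on the strand of the gene, for Sdha and Ndufs7, the most positive differences of TTg from Ctrl at 2 and at 3 months, and for Atp5e and Ndufb2, the most negative ones between control ages, in lower case with matches in capitals. They lie at chr13:74350241-74350490 (minus strand), chr10:80249199-80249448 (plus), chr2:174464102-174464351 (minus) and chr6:39592315-39592564 (plus) in that order.
Sdha: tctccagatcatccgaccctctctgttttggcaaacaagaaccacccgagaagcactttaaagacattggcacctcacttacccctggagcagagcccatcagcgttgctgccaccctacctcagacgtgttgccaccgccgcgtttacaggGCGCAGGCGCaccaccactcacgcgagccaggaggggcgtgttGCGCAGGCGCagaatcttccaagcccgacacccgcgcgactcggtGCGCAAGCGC
Ndufs7: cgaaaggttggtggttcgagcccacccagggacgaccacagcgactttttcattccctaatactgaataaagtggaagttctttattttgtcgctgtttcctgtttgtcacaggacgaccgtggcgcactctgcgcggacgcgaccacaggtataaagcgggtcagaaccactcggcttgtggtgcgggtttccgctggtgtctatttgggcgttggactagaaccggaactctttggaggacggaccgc
Atp5e: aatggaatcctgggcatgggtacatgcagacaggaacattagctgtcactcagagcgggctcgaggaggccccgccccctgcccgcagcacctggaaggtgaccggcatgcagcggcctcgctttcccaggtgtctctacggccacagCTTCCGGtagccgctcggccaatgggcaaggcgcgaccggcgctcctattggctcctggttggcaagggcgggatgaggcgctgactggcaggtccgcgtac
Ndufb2: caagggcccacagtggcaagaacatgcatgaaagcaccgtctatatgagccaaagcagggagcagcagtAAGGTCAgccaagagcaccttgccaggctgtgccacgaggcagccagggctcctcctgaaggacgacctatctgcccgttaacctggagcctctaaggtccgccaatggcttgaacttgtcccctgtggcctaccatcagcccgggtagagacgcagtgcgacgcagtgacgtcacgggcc
Sdha carries 3 matches to the NRF1 letters, Atp5e 1 to those of GABP on the opposite strand, Ndufb2 1 to those of estrogen-related receptors, and Ndufs7 none in this stretch.

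Other genes that serve the same pathway were taken from fixed lists, and limma called 0 of them at the adjusted threshold in any of the 3 comparisons. Of 41 further assembly factors, 31 had a higher mean in TTg than in Ctrl at 3 months (median 0.28, 3 higher and 0 lower at an unadjusted p under 0.05, where all features had 3.35% higher and 4.11% lower). Atpaf1, which assembles the head of the ATP synthase, read 10.52 and 10.94 for 3-month Ctrl, and 12.04 and 11.39 for TTg (0.98 ± 0.32, limma adjusted p = 0.661). Of 19 genes of electron carriers and coenzyme Q synthesis, 16 were higher (median 0.36, 2 higher and 1 lower at p under 0.05). Etfdh, which feeds electrons from fatty acids to coenzyme Q, differed by 0.93 ± 0.39, and Coq8b, a kinase-like protein of coenzyme Q synthesis, by -1.27 ± 0.36 (limma adjusted p 0.665 and 0.661), and by 0.36 and -0.88 without Ctrl at 3 months replicate 1. The 19 TCA cycle genes had a median of 0.40 with 17 higher (2 at p under 0.05), and the 16 genes of ATP export and energy transfer one of 0.17 with 11 higher (0 at p under 0.05). These medians rested on the same array as those of the 94, that of the TCA cycle only in part. Without Ctrl at 3 months replicate 1 they were -0.005 for assembly factors, 0.02 for carriers, 0.13 for TCA genes and 0.00 for ATP export. Of the TCA cycle genes, 15 were then higher and 4 lower. For assembly factors the counts were 20 and 21, for carriers 10 and 9, and for ATP export 7 and 7.

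Regulators of mitochondrial gene expression were mixed in direction. Of 28, 19 had a higher and 9 a lower mean in TTg than in Ctrl at 3 months (0 and 1 at p under 0.05), and 13 and 15 without Ctrl at 3 months replicate 1. Hif1a, which encodes the oxygen-regulated subunit of hypoxia-inducible factor, read 12.29 and 12.59 in Ctrl at 2 months, 13.66 and 12.97 for 3-month Ctrl, and 12.33 and 11.78 for TTg. It was highest in Ctrl at 3 months without overlap, at -1.26 ± 0.33 for TTg against that group (limma adjusted p = 0.655). Ppara, a receptor that drives fatty acid oxidation genes, differed by 0.86 ± 0.66, and by 0.22 without that array. Ppargc1a, a coactivator of mitochondrial genes that was chosen after its values were seen, read 14.13 and 15.08, 15.88 and 15.77, and 15.14 and 16.53, so its mean was higher in Ctrl at 3 months than at 2 months by 1.22 ± 0.50 (limma adjusted p = 0.609), and by 0.74 without Ctrl at 2 months replicate 1.

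The 94 genes were set beside 3 other gene families without a test. Mitochondrial ribosomal protein genes (76) had medians of -0.58 between control ages, 0.25 between TTg and Ctrl at 3 months, and -0.29 between TTg and Ctrl at 2 months, beside -0.50, 0.22 and -0.32 for the 94. Fatty acid oxidation genes (24) stood at -0.23, 0.67 and 0.41, with array means of 14.43 and 14.75 in 2-month controls, 13.97 and 14.79 in 3-month controls, and 14.73 and 15.24 for TTg, which overlapped both. Without Ctrl at 3 months replicate 1 the medians between TTg and Ctrl at 3 months were -0.02 for mitochondrial ribosomal proteins and 0.23 for fatty acid oxidation, and the latter's median between control ages was 0.17. Cytosolic ribosomal protein genes (63, added after the data had been seen) stood at -0.72, -0.30 and -1.0, and the first and last of these were -0.29 and -0.57 without Ctrl at 2 months replicate 1. Their median between TTg and Ctrl at 3 months was -0.18 without Ctrl at 3 months replicate 1. Bright features as such, the 1404 with a mean of at least 12, had medians of -0.06, 0.02 and 0.00.

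**Figure D5:**
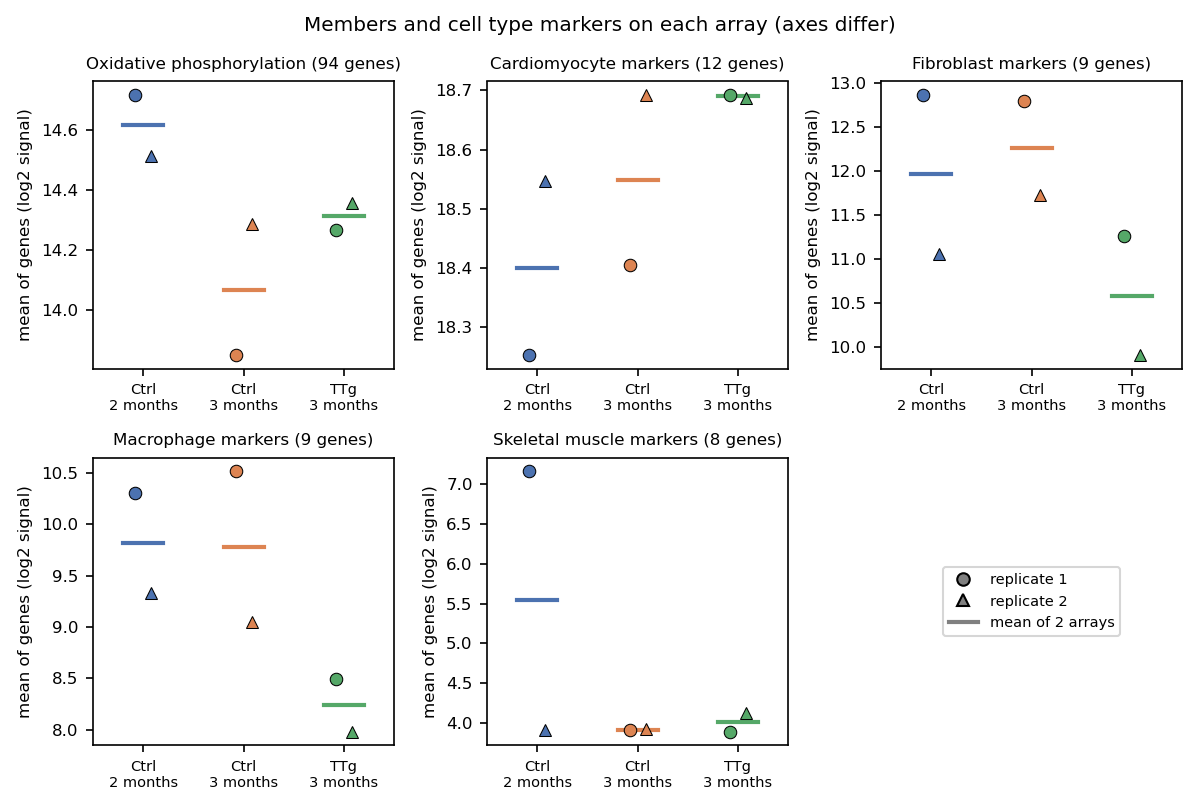
Mean log2 signal on each array of the 94 oxidative phosphorylation genes and of marker lists of 4 cell types (circles replicate 1, triangles replicate 2, bars the mean of the 2 arrays; the vertical axes differ). Ctrl at 2 months replicate 1 stands apart in skeletal muscle markers at 7.17, and fibroblast and macrophage markers have their lowest means in TTg.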

How the data were processed

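The values used are log2 signals per array feature as deposited by the authors for 6 arrays. Per the submitters' processing notes the tool was Transcriptome Analysis Console 4.0. The summary, background and normalization methods are not given in the sources used here. All 22206 features were fitted without further normalization in limma 3.58.1 (R 4.3.3), with 1 coefficient per group and moderated spread (3 residual and 4.13 prior degrees of freedom). Tests were two-sided, with Benjamini-Hochberg adjustment across the 22206 features (threshold 0.05). Errors of differences are SEs, and 2 arrays per group limit the precision. Features with a mean below the 30th percentile (3.65) were taken as dim. The fit was tested on simulated data.

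The genes and lists were chosen with earlier results of these data known, so lists are described by counts and medians and not tested. Places within complexes were assigned after values had been seen. Genes were named by a rule, which always took complex II, cytochrome c, paired complex IV isoforms, subunit c and Atpif1. The rule added the 3 highest and 3 lowest per complex in TTg against Ctrl at 3 months. To these came the 4 highest and 4 lowest in each other comparison, and the 2 highest and 2 lowest of each further list. Fewer are used, and not always in rank order, since Coq6 ranked above Etfdh and Tfb1m above Ppara and neither is shown. Ndufs1 and Ppargc1a were chosen after their values were seen. Alternatives were other priors, quantile normalization, median centring, filters, the compared groups alone, a replicate block and leaving out each array, where an array left alone in its group is taken to vary as the others do. Leaving out arrays for lists and for places within complexes was added after seeing the data.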

Additional observations from a re-analysis of the deposited data

How the results depend on the processing

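Under every alternative tried, 0 of the 94 genes passed the adjusted threshold in limma in any comparison. Counts over all features stayed small. For TTg against Ctrl at 3 months (1 feature) the count was 2 with the compared groups alone and 0 to 2 with an array left out. For Ctrl at 3 against 2 months (1 feature) it was 0 with an intensity trend, 0 with quantile normalization, 0 without dim features, and 0 to 6 with an array left out. For TTg against Ctrl at 2 months (0 features, with 955 higher and 1201 lower at an unadjusted p under 0.05) it was 1 with a robust prior and 0 to 22 with an array left out. With the replicate number as a block, 11 and 5 features were called in the comparisons of TTg with Ctrl at 3 and 2 months, and 0 of the 94. Differences between replicates 1 and 2 correlated between groups at 0.13, 0.14 and 0.12 over all features, and the labels do not say that numbers pair animals.

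Medians for TTg against Ctrl at 2 months became -0.21 (complex III) and -0.0517 (complex V) with quantile normalization, -0.48 (complex IV) with structural subunits only, and -0.34 (complex V) with genes below 19 on every array. With an array left out, medians for TTg against Ctrl at 3 months ran from 0.005 to 0.57 (I), 0.18 to 1.01 (II), 0.06 to 0.44 (III), 0.0225 to 0.17 (IV) and -0.01 to 0.38 (V). For Ctrl at 3 against 2 months they ran from -0.60 to 0.22 (II) and -0.53 to -0.26 (IV). For TTg against Ctrl at 2 months they ran from -0.42 to -0.21 (all 94), -0.53 to -0.25 (I), 0.0575 to 0.40 (II), -0.29 to -0.24 (III), -0.46 to -0.23 (IV) and -0.35 to -0.15 (V). The cause was not tested.

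Signs of small differences turned with quantile normalization for Atp5l (-0.0496), Cox4i2 (-0.0046) and Cox6a2 (0.02) in TTg against Ctrl at 3 months, and Cox8a (0.0371) and Sdhb (0.0079) between control ages. Median centring turned Cox6a2 (0.035) in the first of these. With an array left out, differences of TTg from Ctrl at 3 months spanned 0 for Atp5g1 (-0.035 to 0.44), Atp5g2 (-0.02 to 0.34), Atp5l (-0.20 to 0.23), Atp5mpl (-0.17 to 0.065), Cox4i2 (-0.11 to 0.12), Cox6a1 (-0.28 to 0.085), Cox6a2 (-0.10 to 0.085), Cox6b1 (-0.01 to 0.34), Cox6b2 (-0.55 to 0.20), Cox7a1 (-0.08 to 0.45), Cox7b2 (-0.18 to 0.02), Cox8b (-0.21 to 0.53), Cox8c (-0.10 to 0.84), Ndufa4 (-0.11 to 0.31), Ndufaf8 (-0.47 to 0.16), Ndufb8 (-0.47 to 0.16), Sdhb (-0.03 to 0.54) and Uqcrq (-0.10 to 0.02). Between control ages they did so for Cox4i2 (-0.48 to 0.065), Cox6b2 (-0.36 to 0.39), Cox7b2 (-0.25 to 0.12), Cox8a (-0.08 to 0.04), Cox8c (-0.22 to 0.72), Ndufa4l2 (-0.92 to 0.17), Ndufv1 (-0.06 to 0.20), Sdha (-0.26 to 0.54), Sdhb (-0.42 to 0.16) and Sdhc (-0.79 to 0.28), and in TTg against Ctrl at 2 months for Sdhc (-0.005 to 0.85). Signals near 19.93 and below 3.65 limit the size of a difference.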
